A study of Mus musculus with 18 samples.

Results

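The genes described here carry out successive steps by which fat tissue takes up, activates and reads thyroid hormone: Dio2, Slc16a10, Thra, Thrb and Thrsp. They were chosen by their mouse gene symbols and made up 5 of the 54347 rows of the count table, and all 5 were among the 18728 genes with enough counts to be tested. Polyadenylated RNA was sequenced from interscapular brown (iBAT), inguinal white (iWAT) and epididymal white adipose tissue (eWAT) of C57BL/6N mice aged 12 weeks. Of the 6 mice, 3 were wild type (wt) and 3 carried ΔGm15551 (knockout, ko), a deletion made with CRISPR/Cas9 that takes out exon 1 of the long noncoding RNA gene Gm15551. The knockout line had been backcrossed to wild type and the controls were litter mates. The study's methods name a chow diet for the mice used for transcriptomes and housing at room temperature as the default, but its results speak of high fat and control diets for adipose transcriptomes, and the labels give no diet. Each mouse gave all 3 tissues, which made 18 libraries in 6 groups of 3.

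Thyroid hormone circulates mainly as the prohormone thyroxine (T4). Cells import it through membrane carriers, and the type 2 deiodinase encoded by Dio2 removes an outer-ring iodine to form the active hormone triiodothyronine (T3), which binds the nuclear receptors encoded by Thra and Thrb. In brown fat, sympathetic signalling through cyclic AMP induces Dio2, and the T3 made there acts together with noradrenaline on Ucp1, the uncoupling protein of heat production. Slc16a10 encodes the aromatic amino acid carrier MCT10, which also carries T3 and T4, and Thrsp (Spot 14) is a classical T3-responsive gene of lipogenic tissues.

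Sequences are shown for the 2 members with features that bear on these roles: the enzyme Dio2, whose transcript is read through an in-frame stop codon and whose promoter is a target of cyclic AMP signalling, and the receptor Thrb, whose first window held both motifs searched. Windows from RefSeq (GRCm38.p6), running from 250 bases before to 50 bases after an annotated start, were found for 4 of the 5 members, not for Thra. The motifs were TGACG, the core of the cyclic AMP response element, and AGGTCA, the core of the thyroid hormone response element, each searched on both strands. Capitals mark the matches. The Dio2 window lies at chr12:90738989-90739288 on the minus strand, and the first Thrb window at chr14:17660710-17661009 on the plus strand. Positions are relative to these RefSeq starts, which differ from the gene starts in the GENCODE coordinates given below (90738438 for Dio2, 17660261 for Thrb). By those coordinates the Dio2 window lies outside its gene and the Thrb window inside.
Dio2 promoter window: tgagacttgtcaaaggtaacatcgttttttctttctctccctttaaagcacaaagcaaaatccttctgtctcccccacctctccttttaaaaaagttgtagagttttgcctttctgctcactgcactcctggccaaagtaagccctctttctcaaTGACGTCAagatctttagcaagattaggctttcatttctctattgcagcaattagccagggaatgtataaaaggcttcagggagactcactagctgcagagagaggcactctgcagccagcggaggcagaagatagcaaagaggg
Thrb promoter window: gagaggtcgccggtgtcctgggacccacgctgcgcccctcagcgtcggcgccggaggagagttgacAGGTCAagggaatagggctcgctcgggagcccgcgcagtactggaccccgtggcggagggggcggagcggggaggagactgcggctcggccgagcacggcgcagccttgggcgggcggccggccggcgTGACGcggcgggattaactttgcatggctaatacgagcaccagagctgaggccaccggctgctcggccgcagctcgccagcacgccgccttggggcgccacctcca
The Dio2 window held 2 overlapping TGACG matches on opposite strands, from -95 to -88 relative to the start, which together spell the palindrome TGACGTCA. Among all 32851 windows of this length, 20.8% held TGACG, 16.3% held AGGTCA and 588 (1.79%) held the palindrome, a count added after the Dio2 window had been seen. The Thrb window held AGGTCA from -184 to -179 and TGACG from -56 to -52. The windows of Thrsp and Slc16a10 and the second window of Thrb held neither string, and such matches describe letters, not bound sites.

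The deiodinase is a selenoprotein, in which UGA is read as selenocysteine, and the annotated Dio2 reading frame contains 2 such codons in GRCm38. The catalytic selenocysteine is at codon 130 (TGA at chr12:90729823-90729825) and another TGA stands at codon 263 (chr12:90729424-90729426), both on the minus strand and shown here with flanking bases on each side.
Dio2 codon 130: tttggttcagccaccTGAccacctttc
Dio2 codon 263: aatttcagcaagagaTGAattctagat

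Total estimated counts ranged from 14997901 to 34389586 per library, so that a count of 0 allows up to 0.0728 to 0.235 CPM (the usual depth-scaled count, here relative to the TMM-scaled library total), a limit that covers counting error only. Mitochondrial genes took 22.9% to 27.0% of the counts in iBAT and 3.77% to 9.64% in the white tissues. Factors of the TMM method, which corrects for such composition, lay between 0.617 and 0.744 for brown fat and between 1.06 and 1.44 for white fat, and this scaling decides some directions reported for iBAT. With library totals as the only scaling, an alternative added after seeing the data, the median log2 difference over all genes between iBAT and iWAT moved from -0.14 to -0.95, and that between iBAT and eWAT from -0.17 to -1.04. The share of higher genes among those called fell with it from 44.2% to 10.1% and from 44.7% to 10.7%. The targeted gene Gm15551 was counted 40 to 68 times in wild type iBAT, 59 to 316 times in wild type iWAT and 181 to 237 times in wild type eWAT. The knockout counts of these tissues were 0, 0 to 1 and 0 to 4, so every library matched its genotype label. The labelled tissues were checked by marker genes. The summed level of brown adipocyte genes was 7264 to 12191 CPM in iBAT but 28.3 to 316 CPM for iWAT and 10.7 to 17.8 CPM for eWAT, and that of epididymal depot genes was 22.7 to 79.3 CPM in eWAT and at most 0.0646 in iBAT. In 4 white fat libraries, genes of other tissues stood out: lymph node genes in iWAT wt 3 (944 CPM) and iWAT ko 2 (403 CPM, at most 16.6 in any other library), skeletal muscle genes in iWAT ko 1 (4398 CPM, at most 24.0 elsewhere), and epididymis genes in eWAT ko 3 (4819 CPM, at most 16.6 elsewhere). The 16.6 CPM of epididymis genes were in eWAT wt 1, above the 0.172 to 1.98 CPM of the remaining eWAT libraries. The tissue differences of the 5 members are given with and without these 4 libraries, which do not include eWAT wt 1.

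Dio2, the activating enzyme, had larger differences between brown and white fat than the other 4 members. The gene (chr12:90724552-90738438, GRCm38, minus strand, 2 exons) had 237, 122 and 57.5 CPM in the iBAT libraries of wild type mice 1, 2 and 3 and 413, 265 and 46.5 CPM in those of knockout mice 1, 2 and 3. In iWAT the corresponding values were 1.69, 7.43 and 0.594 CPM in wild type and 2.17, 4.32 and 1.50 CPM in knockout mice. In eWAT they were 0.264, 1.89 and 0.296 CPM and 1.29, 0.825 and 0.0495 CPM, the last of these being a single count. The lowest iBAT library thus stood above the highest library of either white tissue. Dio2 was higher in iBAT than in iWAT by 5.97 ± 0.75 on the log2 scale (SE, n = 6 per tissue, a 62.8-fold difference, adjusted p = 5.03e-06, edgeR quasi-likelihood test) and higher than in eWAT by 7.91 ± 0.84 (240.1-fold, adjusted p = 6.05e-07). Both calls held with library totals as the only scaling (5.17 and 7.02) and without the 4 libraries (5.60 and 7.66). Between the white tissues the difference was 1.93 ± 0.75 (adjusted p = 0.112), with overlapping libraries, and 2.06 without the 4 libraries (adjusted p = 0.183). With each mouse taken as a block it was 2.02 (adjusted p = 0.0247). In the model without the block it was 1.26 when iWAT wt 2, the highest white fat library, was left out (adjusted p = 0.293).

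Dio2 was also the member that varied most within a tissue. Its iBAT level was 190 ± 142 CPM (SD, n = 6), and both libraries of the replicate 3 mice, one of each genotype, were the lowest. Those mice were the lowest for Dio2 in iWAT as well, but not in eWAT, where wt 1 (0.264 CPM) lay below wt 3 (0.296 CPM). The pair of replicate 3 libraries lay below the other 4 for 13.7% of all tested genes in iBAT, for 7.64% in iWAT and for 2.11% in both. Ucp1 showed the same order at its lower end in iBAT, with 3978 and 3422 CPM in the iBAT libraries of the replicate 3 mice and 5344 to 7994 CPM in the other 4, but not in iWAT, where the replicate 3 libraries had 0.0989 and 18.5 CPM and the other 4 had 2.70 to 55.3 CPM. The labels attach no meaning to the replicate numbers.

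**Figure D1:**
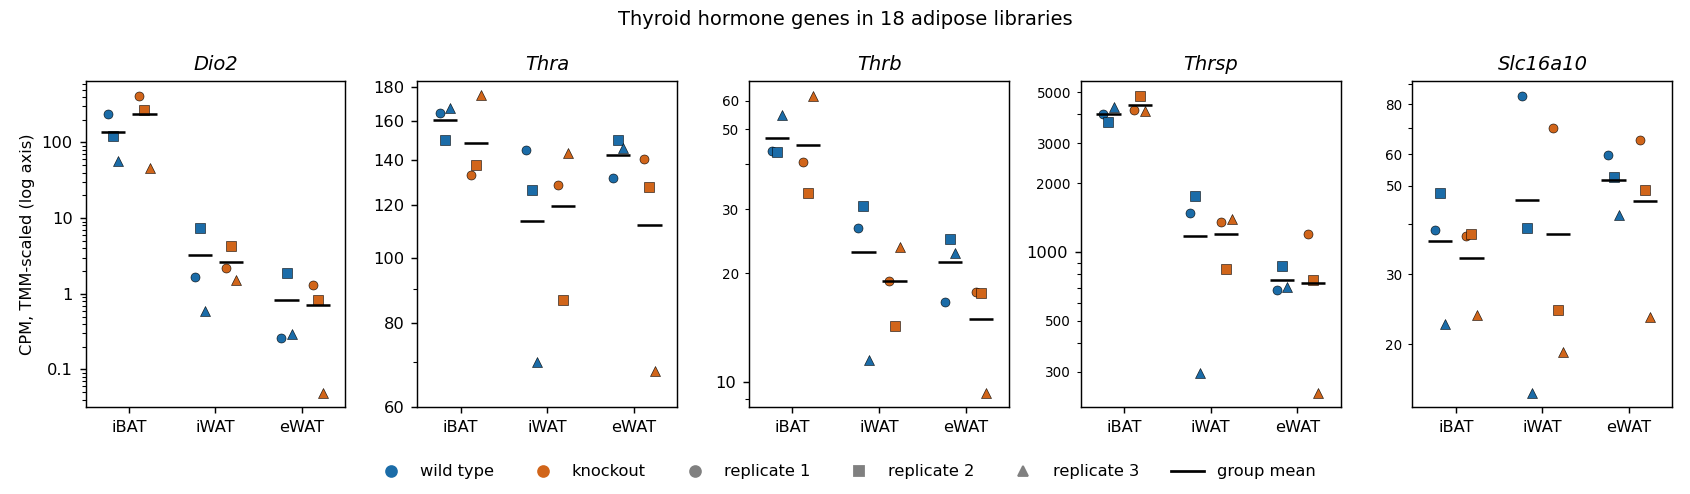
Levels of the 5 genes in the 18 libraries (TMM-scaled CPM, log axis), by tissue and genotype, 3 libraries per group, with blue for wild type, orange for knockout, a symbol for each replicate number and bars for group means. The iBAT libraries lie above all white fat libraries for Dio2, Thrb and Thrsp, and the tissues overlap for Thra and Slc16a10.

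The T3 and T4 carrier Slc16a10 (chr10:40033532-40142258, minus strand) showed no call between tissues with TMM scaling. Its lowest, median and highest levels in iBAT were 22.6, 37.7 and 48.0 CPM. Those in iWAT were 15.1, 31.8 and 84.1 CPM, and those in eWAT 23.4, 50.7 and 65.2 CPM. The tissues overlapped, and iWAT spread most widely. The log2 difference was -0.27 ± 0.38 between iBAT and iWAT (95% interval -1.08 to 0.54, adjusted p = 0.571, edgeR) and -0.49 ± 0.38 between iBAT and eWAT (-1.30 to 0.32, adjusted p = 0.288). With library totals as the only scaling the differences were -1.03 (adjusted p = 0.0110) and -1.36 (adjusted p = 0.00176), both called lower in iBAT. Without the 4 libraries they were -0.36 (adjusted p = 0.437) and -0.62 (adjusted p = 0.0835). Against the median of all genes, the difference between iBAT and iWAT was -0.12 with TMM and -0.08 with library totals, and that between iBAT and eWAT was -0.31 with either. Replicate 3 mice had the lowest Slc16a10 levels of their tissue in all 3 tissues, a pattern shared by 0.651% of tested genes (10.7% in eWAT alone).

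Both receptor genes were detected in every library, and only Thrb separated the tissues with TMM scaling. Thrb (chr14:17660261-18038090, plus strand), which encodes the receptor form that dominates in liver and pituitary, had 33.4, 43.5 and 61.8 CPM as lowest, median and highest values in iBAT. In iWAT these were 11.5, 21.3 and 30.7 CPM and in eWAT 9.36, 17.7 and 24.9 CPM. No white fat library reached the lowest iBAT library. The difference was 1.15 ± 0.24 on the log2 scale against iWAT (adjusted p = 0.000624, edgeR) and 1.37 ± 0.24 against eWAT (adjusted p = 0.000127). Without the 4 libraries it was 0.81 and 1.24, and both calls held. With library totals as the only scaling it was 0.39 against iWAT (adjusted p = 0.0942), no longer called, and 0.53 against eWAT (adjusted p = 0.0277).

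Thra (chr11:98740638-98769006, plus strand) encodes the receptor form that prevails in most other tissues, together with a splice form that does not bind T3, and the table does not separate them. Its lowest, median and highest levels were 133, 157 and 175 CPM in iBAT. They were 70.1, 127 and 145 CPM in iWAT, against 68.1, 136 and 150 CPM in eWAT, so the tissues overlapped. The log2 difference was 0.40 ± 0.19 against iWAT (95% interval -0.01 to 0.81, adjusted p = 0.0847, edgeR) and 0.29 ± 0.19 against eWAT (-0.12 to 0.69, adjusted p = 0.217). Without the 4 libraries it was 0.17 (adjusted p = 0.194) and 0.15 (adjusted p = 0.140). Its sign turned with library totals as the only scaling, to -0.37 (adjusted p = 0.0451) and -0.56 (adjusted p = 0.00466). Relative to the median of all genes the difference from iWAT was 0.55 and 0.58 under the respective scalings. Thra shares 263 exon bases (5.70% of its own) with Nr1d1, the gene of the clock repressor REV-ERBα on the opposite strand. With the strand setting of the counting not given, reads from these bases cannot be assigned to either gene. Levels of Nr1d1 were 204 to 288 CPM in iBAT, and 82.6 to 260 CPM and 94.7 to 258 CPM in iWAT and eWAT.

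The balance of the receptors differed between all 3 tissues and does not depend on how libraries are scaled. The count of Thra divided by that of Thrb averaged 3.42 ± 0.474 in iBAT (SD, n = 6, range 2.83 to 4.12), 5.75 ± 0.900 for iWAT (4.11 to 6.74) and 7.13 ± 0.776 for eWAT (6.01 to 7.91). The ranges of iBAT and eWAT were apart, and that of iBAT met that of iWAT at a single library on each side. Within mice, the log2 ratio was lower in iBAT than in iWAT by 0.74 on average and lower than in eWAT by 1.06. In iWAT it was lower than in eWAT by 0.32. Each of these differences had the same direction in 6 of 6 mice (exact two-sided paired permutation test, p = 0.03125, the smallest it can give, adjusted p = 0.0469 over 6 ratio tests). Without the mice that had genes of other tissues in a library of the contrast, the differences were -0.63 in 3 mice, -1.0 in 5 and -0.54 in 2, numbers too small for this test to reach the threshold. Per exon length, which allows levels of different genes to be compared, the median ratio was 5.41 in iBAT, 9.74 for iWAT and 11.7 for eWAT, so the Thra gene, all its splice forms and the bases shared with Nr1d1 included, had the higher level in every tissue.

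**Figure D2:**
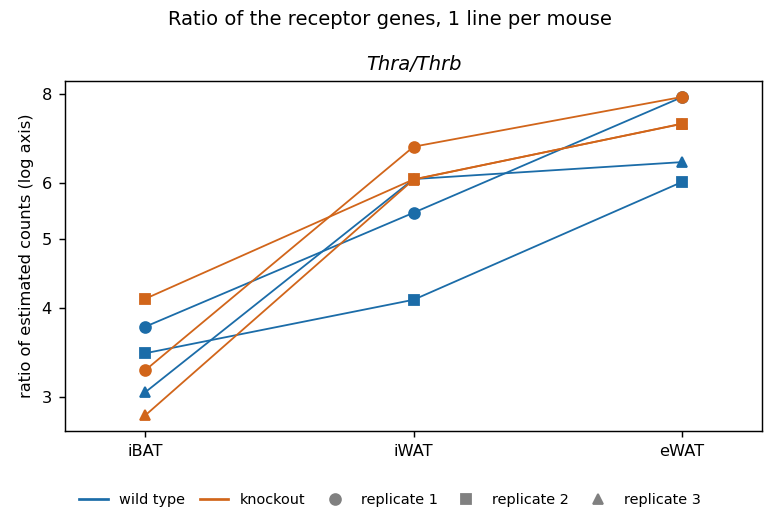
Count ratio of Thra to Thrb in each mouse and tissue (log axis), with lines joining the libraries of a mouse, blue for wild type and orange for knockout. The receptor ratio was lower in iBAT than in either white tissue in 6 of 6 mice.

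Thrsp (chr7:97412938-97417730, minus strand), the T3-responsive and lipogenic member, was the most abundant of the 5 genes per exon length in every library. It had 3691, 4173 and 4823 CPM as lowest, median and highest values in iBAT, compared with 296, 1374 and 1767 CPM for iWAT and 243, 730 and 1202 CPM for eWAT. All iBAT libraries stood above all white fat libraries, and the lowest white values came from iWAT wt 3 and eWAT ko 3, both among the 4 libraries with genes of other tissues. Thrsp was higher in iBAT than in iWAT by 1.82 ± 0.37 on the log2 scale (adjusted p = 0.000575, edgeR) and than in eWAT by 2.49 ± 0.38 (adjusted p = 3.26e-05). Both calls held without the 4 libraries (1.40 and 2.30) and with library totals as the only scaling (1.07 and 1.66). Between iWAT and eWAT the difference was 0.68 ± 0.36 (adjusted p = 0.255), and 0.90 without the 4 libraries (adjusted p = 0.00316).

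Of the 5 members, 3 were called higher in iBAT than in iWAT and 0 lower, where 54.3% of all tested genes were called, 24.0% higher and 30.3% lower. Against eWAT the same 3 were called higher, where 54.6% of all genes were called, 24.4% higher and 30.2% lower. For these 3 genes the libraries of iBAT did not overlap with those of either white tissue, as was the case for 34.6% of genes against iWAT and 37.3% against eWAT. Between iWAT and eWAT the edgeR model without a mouse block called 0 of 5 members. It called 10.2% of all genes, 5.7% higher in iWAT and 4.5% lower. The libraries of both white tissues overlapped for all 5 members, and did not for 4.62% of genes. In this contrast, limma voom called 1 member, Thrsp, and 7.51% of all genes higher and 6.98% lower. With each mouse as a block edgeR called Dio2, beside 4.65% of all genes higher and 4.6% lower. Without the 4 libraries it called Thrsp, beside 5.7% and 4.55%. The log2 differences between iWAT and eWAT were -0.12 for Thra (95% interval -0.53 to 0.29), 0.22 for Thrb (-0.29 to 0.72) and -0.22 for Slc16a10 (-1.02 to 0.59), and without the 4 libraries they were -0.01, 0.43 and -0.26. The iBAT contrasts share the iBAT libraries. In whole tissue, fewer cells of a type and less RNA per cell cannot be told apart, and adipocyte marker genes summed to 14925 to 16868 CPM in iBAT, with 7262 to 20967 CPM for iWAT and 9440 to 21593 CPM for eWAT. The 4 macrophage marker genes, all detected in each tissue, summed to 26.4 to 60.5 CPM in iBAT, 117 to 509 CPM for iWAT and 58.9 to 197 CPM for eWAT, and the part of such cells in the tissue differences was not tested.

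**Figure D3:**
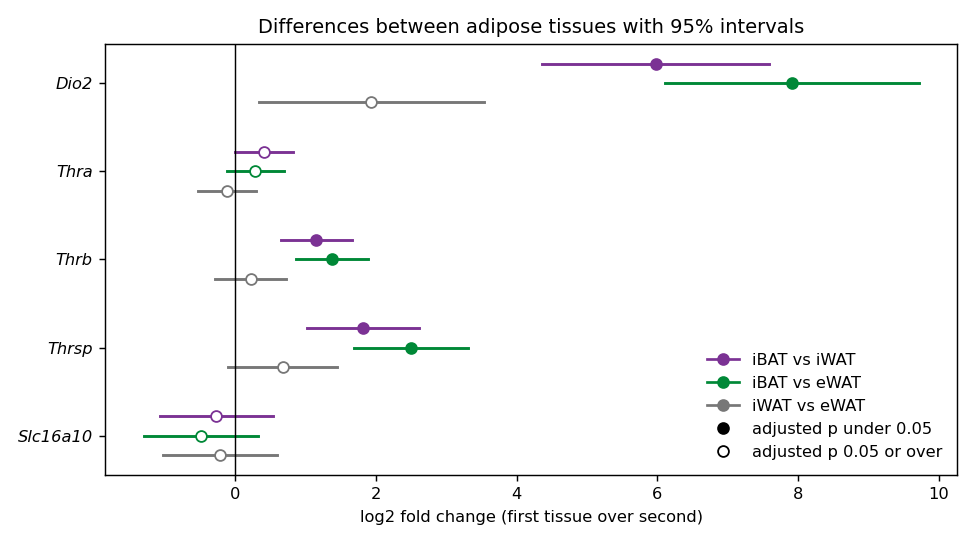
Log2 fold changes of the 5 genes between tissues with 95% intervals (edgeR, n = 6 libraries per tissue). Dio2, Thrb and Thrsp lie above 0 against both white tissues, the intervals of Thra and Slc16a10 include 0, and with library totals as the only scaling Thra turns below 0.

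Levels per exon length were also ordered within each tissue, as TPM computed from the counts, a unit that divides each count by exon length before scaling. In iBAT, Thrsp stood at 2544 TPM on average, Thra at 44.8 and Dio2 at 41.4, the ranges of the latter pair overlapping (35.4 to 54.2 and 11.4 to 87.0 TPM). They were followed by Thrb at 8.42 and Slc16a10 at 6.19 TPM, whose ranges overlapped too, and the highest Thrb library (11.9 TPM) stood above the lowest of Dio2. In eWAT the order was Thrsp (1196 TPM), Thra (97.8), Slc16a10 (23.6), Thrb (8.65) and Dio2 (0.451), and neighbours in this order had ranges apart. The iWAT order was the same, with 1661, 79.4, 17.7, 8.78 and 1.54 TPM, but the ranges of Slc16a10 and Thrb overlapped there. In this unit Dio2 therefore ranked last of the 5 in white fat, and its range overlapped that of Thra in brown fat. The exon length joins all annotated exons of a gene, from 9 transcripts for Thra and 1 for Dio2. TPM carries no TMM factor, so a level of 1 gene in different tissues follows the library totals on this scale.

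The 5 members were set beside 60 other genes of the pathway in 10 lists covering deiodination, transport, receptors and partners, coregulators, deiodinase turnover, selenoprotein synthesis, upstream signals and T3-responsive genes. Of these, 53 were tested. In iBAT against iWAT, 17 of the 53 rose, 15 fell and 21 were not called, where 24.0% of all tested genes rose and 30.3% fell. Against eWAT, 24 rose, 16 fell and 13 were not called, beside 24.4% and 30.2% of all genes. Between iWAT and eWAT 7 were higher in iWAT and 3 lower, beside 5.7% and 4.5% of all genes. Without the 4 libraries 18 were higher and 17 lower than in iWAT, 25 and 18 than in eWAT, and 10 and 4 between iWAT and eWAT. That fit tested 20162 genes in all and called 20.7% higher and 24.6% lower against iWAT, 25.7% and 31.4% against eWAT, and 5.7% and 4.55% between iWAT and eWAT. In all 4 scalings tried, 11 of the 17 and 13 of the 24 remained higher and 14 of the 15 and 16 of the 16 remained lower, and 5 and 8 of the higher genes turned sign in at least 1 scaling.

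Of 4 receptors upstream of Dio2, 1 was higher and 1 lower in iBAT than in iWAT, and 2 were higher and 2 lower than in eWAT. Among all genes 24.0% were higher and 30.3% lower than in iWAT, and 24.4% and 30.2% than in eWAT. With library totals as the only scaling, 1 was higher and 2 lower in each contrast (all genes 7.68% and 68.4% against iWAT, 8.43% and 70.3% against eWAT). Leaving out the 4 libraries, 1 was higher and 2 lower in each of these contrasts, beside 20.7% and 24.6% of all genes against iWAT and 25.7% and 31.4% against eWAT. Adrb1, a receptor for noradrenaline upstream of cyclic AMP, was higher in iBAT (34.7 CPM on average) than in iWAT (5.33 CPM, log2 difference 2.69, adjusted p = 1.9e-06, edgeR). Adrb3, the adipocyte β3-adrenoceptor, was lower in iBAT (432 CPM) than in eWAT (997 CPM, -1.20). Tshr, the thyrotropin receptor, was lower in iBAT (19.4 CPM) than in iWAT (94.5 CPM, -2.28, adjusted p = 8.03e-05) and eWAT (160.0 CPM, -3.04). Of 6 genes of selenoprotein synthesis, 4 were higher and 1 lower in iBAT than in iWAT, and 5 were higher and 1 lower than in eWAT, beside the same shares of all genes, and these counts were the same without the 4 libraries (all genes 20.7% and 24.6%, 25.7% and 31.4%). Library totals gave 2 higher and 4 lower in each contrast. Sephs2, which makes the selenium donor for selenocysteine, was higher in iBAT (259 CPM) than in iWAT (89.8 CPM, 1.53, adjusted p = 1.88e-06) and eWAT (74.5 CPM, 1.80). Pstk, a kinase of the same route, was higher by 1.34 and 1.23. Of the other genes of selenocysteine insertion, Eefsec, the dedicated elongation factor, was lower (-0.45 and -0.36), and Sepsecs and Trnau1ap were higher with TMM (0.48 and 0.36, 0.46 and 0.47) but turned sign with library totals.

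Of 4 genes of deiodinase protein turnover, 2 were higher and 1 lower in iBAT than in either white tissue, beside 24.0% and 30.3% of all genes against iWAT and 24.4% and 30.2% against eWAT. Leaving out the 4 libraries gave 2 higher and 1 lower than in iWAT (all genes 20.7% and 24.6%) and 3 and 1 than in eWAT (25.7% and 31.4%), whereas library totals gave 0 higher in either contrast and 3 and 4 lower (68.4% and 70.3% of all). The lower gene, Wsb1, an adaptor of the ubiquitin ligase that marks the enzyme for degradation, differed by -1.25 from iWAT (adjusted p = 9.54e-06, edgeR) and by -1.0 from eWAT. Marchf6, another ligase, and Usp33, a deubiquitinase of the enzyme, were slightly higher with TMM (0.40 and 0.53, 0.36 and 0.32) and turned sign with library totals. Usp33 was not called against iWAT without the 4 libraries (0.23, adjusted p = 0.0812). Dio3, whose product inactivates T3 and T4, was near the floor: the iBAT libraries held at most 3 counts, and its level there was at least 6.56-fold lower than in eWAT. In iWAT it was near the floor too, with 0 to 6 counts (0.125 CPM on average), and lower than in eWAT with 21 to 61 counts (1.34 CPM, adjusted p = 0.00155), and no fold is given there. Dio1, the third deiodinase, was not tested, with 1.63 CPM in eWAT wt 1, a single count in iWAT wt 3 and 0 elsewhere.

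**Figure D4:**
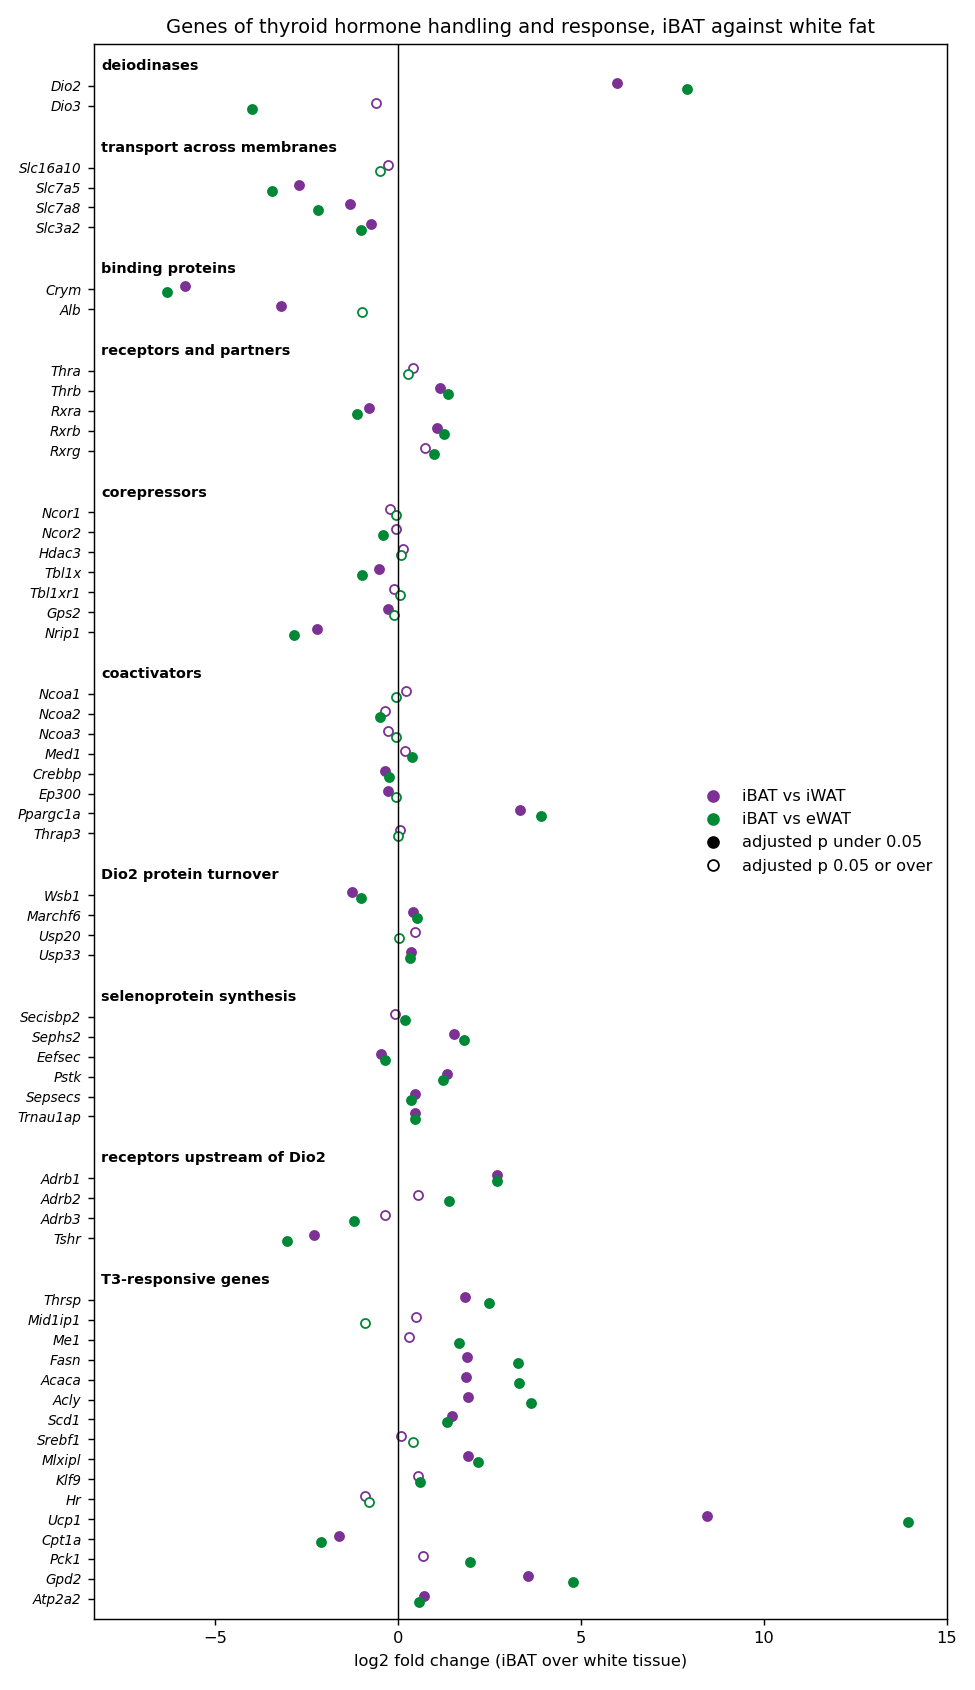
Log2 fold changes of the tested pathway genes between iBAT and the white tissues, by list, with filled symbols for genes past the threshold (TMM scaling, edgeR). Fitted values of Dio3 and Crym are no bounds, since their iBAT libraries held at most 3 counts, and genes such as Marchf6, Usp33, Sepsecs, Trnau1ap and Atp2a2 turn sign with library totals as the only scaling.

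Of the further transport genes, 3 encoding parts of carriers of amino acids and thyroid hormones were lower in iBAT than in either white tissue. They were among 4 membrane transport genes tested, Slc16a10 included, where 30.3% and 30.2% of all genes were lower. With library totals all 4 were lower in each contrast, beside 68.4% and 70.3%. Slc7a5 (LAT1) had 1.08 ± 0.383 CPM in iBAT, 6.99 ± 6.43 in iWAT and 11.8 ± 8.79 in eWAT (SD, n = 6), a log2 difference of -2.69 (adjusted p = 0.00147, edgeR) and -3.44 (adjusted p = 0.000201). Its highest iWAT levels came from the libraries with lymph node genes, iWAT wt 3 (17.9 CPM) and iWAT ko 2 (11.7 CPM), and without the 4 libraries the difference from iWAT was -1.20 (adjusted p = 0.0587), no longer called, and that from eWAT was -3.10 (adjusted p = 3.05e-05). Slc7a8 (LAT2) was lower too (-1.32 and -2.19), as was Slc3a2, their common heavy chain (-0.72 and -1.0). Crym, which binds T3 in the cytosol, was at most at 1 count in any iBAT library and thus at least 6.10-fold lower than in eWAT. In iWAT it had 3.53 CPM in iWAT wt 3 and 1.37 CPM in iWAT ko 2, the libraries with lymph node genes, and 0.138 to 0.271 CPM in the other 4, near the floor, so no fold is given there. Alb, a plasma carrier of the hormone made by liver, was higher in iWAT than in iBAT (-3.19, adjusted p = 2.68e-05) and than in eWAT (2.21, adjusted p = 0.00513).

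Counts of coregulator genes depended on the scaling. Of 7 corepressor genes, 0 were higher and 3 lower in iBAT in each of its contrasts, and of 8 coactivator genes 1 was higher and 2 lower than in iWAT, and 2 higher and 2 lower than in eWAT. Over all genes the shares were 24.0% higher and 30.3% lower than in iWAT, and 24.4% and 30.2% than in eWAT. By library totals alone, 7 of 7 corepressor genes and 7 of 8 coactivator genes were lower in iBAT in each contrast and 1 coactivator gene was higher, where 68.4% of all genes were lower than in iWAT and 70.3% than in eWAT. When the 4 libraries were left out, 2 coactivator genes were higher and 3 lower than in iWAT (all genes 20.7% and 24.6%), and the other counts of both lists did not change (against eWAT, all genes 25.7% and 31.4%). Rxrb, a heterodimer partner, was higher in iBAT at 105 ± 6.56 CPM against 49.9 ± 3.50 in iWAT (SD, n = 6, log2 difference 1.08, adjusted p = 9.09e-09, edgeR) and 44.4 ± 4.02 in eWAT (1.25). Its relative Rxra was lower in iBAT (-0.79 and -1.12). Nrip1 (RIP140), a corepressor of energy expenditure genes, was lower at 15.6 CPM against 72.9 in iWAT (-2.22, adjusted p = 3.48e-07) and 112 in eWAT (-2.84). Ppargc1a, a coactivator of thermogenesis, was higher at 96.9 ± 93.9 CPM against 9.52 in iWAT (3.34, adjusted p = 7.66e-05) and 6.37 in eWAT (3.91, adjusted p = 1.79e-05), with a wide spread in iBAT of 32.2 to 272 CPM. The corepressor subunit Tbl1x was lower in iBAT than in iWAT (-0.50) and eWAT (-0.98) and lower in iWAT than in eWAT (-0.48, adjusted p = 0.0296), the last not called without the 4 libraries (-0.32, adjusted p = 0.101).

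Of 16 T3-responsive genes, Thrsp included, 9 were higher and 1 was lower in iBAT than in iWAT, with a median log2 difference of 1.09 beside -0.14 over all tested genes, of which 24.0% were higher and 30.3% lower. Against eWAT, 12 were higher and 1 was lower (median 1.81, all genes -0.17, of which 24.4% higher and 30.2% lower), and 5 were higher in iWAT than in eWAT and 0 lower (median 0.49, all genes 0.01, of which 5.7% higher and 4.5% lower). Without the 4 libraries 9 were higher and 2 lower than in iWAT, 13 and 2 than in eWAT, and 9 and 1 between iWAT and eWAT, beside 20.7% and 24.6%, 25.7% and 31.4%, and 5.7% and 4.55% of all genes in this order. With library totals as the only scaling 7 were higher and 3 lower than in iWAT, and 9 and 4 than in eWAT, beside 7.68% and 68.4%, and 8.43% and 70.3% of all genes. The medians of the list were then 0.33 and 0.97, beside -0.95 and -1.04 over all genes. The members of this list include genes of brown fat such as Ucp1, which was at 3422 to 7994 CPM in iBAT and at most at 55.3 CPM in iWAT and 1.34 CPM in eWAT. Gpd2, the mitochondrial glycerophosphate dehydrogenase, was higher in iBAT by 3.56 and 4.79, and Acly, which supplies acetyl-CoA for lipogenesis, by 1.92 and 3.63. Mlxipl, the lipogenic transcription factor ChREBP, was higher by 1.90 and 2.20. Cpt1a, which encodes an isoform of the enzyme at the entry of mitochondrial fatty acid oxidation, was the gene that was lower (-1.60 and -2.11). Other isoforms were not in the list. Without the 4 libraries Hr was the further lower gene (-1.08 against iWAT and -0.98 against eWAT). With all libraries it was at -0.90 and -0.78, not called. The members of this list answer to insulin, carbohydrate and catecholamines as well as to T3.

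Genotype did not separate the levels of any member. Across tissues, 0 of 5 members and 0 of the 53 other pathway genes were called between knockout and wild type libraries, and 0.00534% of all genes were, which is Gm15551 alone (adjusted p = 9.08e-07, edgeR). Its knockout libraries were at or near the floor, and set against that floor the wild type means exceeded them at least 14.6-fold (iBAT) and 51.7-fold (iWAT). At an unadjusted p under 0.05 there were 0 members and 1 of the 53 others, beside 411 genes in all (2.19%). The log2 differences across tissues were 0.22 for Dio2 (95% interval -0.98 to 1.42), -0.13 for Thra (-0.46 to 0.21), 0.04 for Thrsp (-0.59 to 0.67) and -0.20 for Slc16a10 (-0.86 to 0.46). The difference of Thrb was -0.28, with an upper bound of 0.13. The model counts the 3 tissues of a mouse as separate libraries although genotype varies among 6 mice, so these intervals are too narrow where the tissues of a mouse move together, as the low Slc16a10 levels of the replicate 3 mice did.

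Within iBAT the Dio2 values of 237, 122 and 57.5 CPM in wild type and 413, 265 and 46.5 CPM in knockout mice overlapped, and the log2 difference was 0.80 (95% interval -1.12 to 2.72). Knockout and wild type libraries overlapped for all 5 members in each tissue, where 4.94% of tested genes (iBAT), 4.92% (iWAT) and 5.25% (eWAT) had no overlap. Within single tissues 0.0% of genes were called in iBAT and likewise in iWAT, and 0.00534% in eWAT, which is Gm15551 again. At an unadjusted p under 0.05, 238 genes (1.27%) passed in iBAT, 415 (2.22%) in iWAT and 814 (4.35%) in eWAT, among them 0 members. In eWAT the differences of Thra (-0.34) and Thrb (-0.52) rested on wild type libraries against knockout libraries that include eWAT ko 3, which had the lowest Thra (68.1 CPM) and Thrb (9.36 CPM) of that tissue. Without that library the differences were -0.09 and -0.28. No member was called for a difference of the genotype effect between tissues, where 0.0% of genes were called and 264 (1.41%) passed at an unadjusted p under 0.05, 0 of them members.

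**Figure D5:**
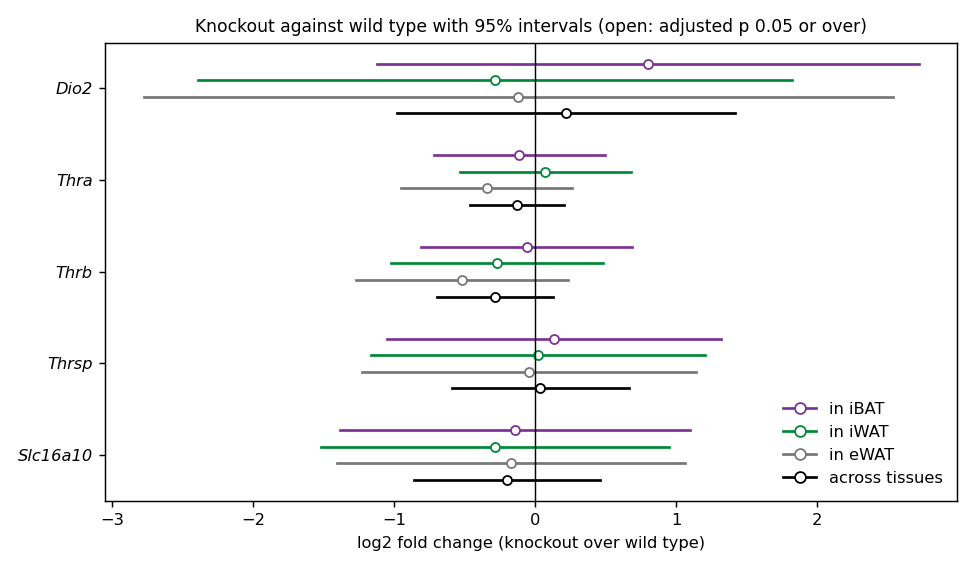
Log2 fold changes of the 5 genes between knockout and wild type libraries with 95% intervals, across tissues and within each tissue (edgeR, 3 mice per genotype). All intervals include 0, and those of Dio2 are the widest.

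The genes whose levels ran most nearly parallel to each member over the 18 libraries were found by the Pearson correlation of log2 CPM. The libraries share mice, tissues and scaling, and the values are descriptions. For Dio2 they were Snx3 (r = 0.987), Dcun1d2 (0.986) and Ago3 (0.983), for Thrb they were Dusp23 (0.965), 1190005I06Rik (0.965) and S100a1 (0.962), and for Thrsp they were Pmm1 (0.991), Prkar2b (0.984) and Dhrs7 (0.983). Thra came closest to Tmem109 (0.948), Akap7 (0.937) and Nfia (0.936), and Slc16a10 to Slc22a3 (0.893), Abhd15 (0.889) and B430010I23Rik (0.879). Once the tissue means were taken off, which leaves the differences among libraries of a tissue, those of the 4 libraries with genes of other tissues included, the closest were Snx3 (0.899), Dcun1d2 (0.898) and Map2k3 (0.894) for Dio2 and Vapb (0.973), Pmm1 (0.965) and Acaa1b (0.961) for Thrsp. For Thra they were Agmo (0.971), Tmbim1 (0.957) and Selenbp1 (0.947), for Thrb Sqor (0.935), Kat2b (0.931) and Clpx (0.924), and for Slc16a10 Ppp2r1a (0.932), Trp53inp2 (0.931) and Dpt (0.930). Snx3 and Dcun1d2 stayed closest to Dio2 and Pmm1 stayed among the closest to Thrsp on both measures, whereas the other members had different genes.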

How the data were processed

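RNA-seq of polyadenylated RNA was analysed from 18 libraries, grouped by tissue and genotype as their titles give them. The authors trimmed reads (cutadapt), estimated abundances with salmon from GENCODE M22 transcripts (GRCm38), alone or with RNAcentral, and deposited estimated counts per gene as whole numbers, not normalised. Which reference was used and the strand setting are not given in the sources used here, and salmon divides reads shared by genes through a model.

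From these counts, edgeR 4.0.16 (R 4.3.3) kept 18728 genes with filterByExpr, scaled libraries by TMM and tested with quasi-likelihood F-tests, adjusting p-values by Benjamini-Hochberg over all genes (threshold 0.05). A model of tissue and genotype gave the tissue contrasts and the genotype effect across tissues, a model of group means the effects within tissues. Standard errors were derived from the fold change and F. The ratio of Thra to Thrb used counts plus 0.5 and was compared within mice by exact sign-flip permutation, adjusted over 6 tests, some of which are not reported here. TPM used the joined length of all annotated exons of a gene in GENCODE M21, found for 54094 of 54347 rows. A fold against libraries with 3 counts or fewer was computed against 3 counts per library.

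Mouse identifiers in the labels tie the 3 tissues of an animal together. Deviations from group means of the same mouse in different tissues correlated at -0.165 to 0.326 (18 pairs). Same-numbered wild type and knockout libraries correlated at -0.465 to 0.551, above 0.1 in 4 of 9 pairs. This cannot decide whether the numbers pair genotypes, since libraries known to share a mouse had a median of only 0.0573 on this measure. Replicate libraries differed by more than sampling noise.

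The members, gene lists and marker lists were chosen with earlier results of these data known. Genes named are the members, Gm15551, Nr1d1, at most 4 genes per list and contrast by smallest p, marker sums and the 3 genes most like each member. Eefsec, Hr, Atp2a2 and the untested Dio1 were named in addition. Of the alternatives, DESeq2 1.42.0 and its size factors, limma 3.58.1 voom, filters, a mouse or replicate block, single genotypes and left-out libraries or mice were planned, and the scalings by library totals were added after seeing the data.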

Additional observations from a re-analysis of the deposited data

Results flagged for a closer look

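Thra in eWAT ko 3 lay far from the other eWAT libraries, at 68.1 CPM, with the next lowest at 128 CPM. The gap was more than 0.625 of the range of the 6 libraries, the critical value. Of 18 comparisons of this kind, 1 was past its critical value and 0.9 would be by chance. The same library held 4819 CPM of epididymis genes, 1033 CPM of Adipoq and the lowest Thrb and Thrsp levels of its tissue, and the part of these in the Thra value was not tested.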

How the results depend on the processing

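Dio2 and Thrsp were called higher in iBAT than in both white tissues under all 4 scalings tried, and Thrb against eWAT. With library totals as the only scaling, added after seeing the data, Thra was -0.37 against iWAT and -0.56 against eWAT, Thrb 0.39 against iWAT, and Slc16a10 -1.03 and -1.36 (-1.0 against eWAT with mitochondrial genes left out of the totals). Under these totals 2 members were lower in each iBAT contrast, and 1 against eWAT without mitochondrial genes. Of the other pathway genes, 11 were higher and 32 lower against iWAT (25 lower without mitochondrial genes), and 13 were higher and 35 lower against eWAT (13 and 28 without mitochondrial genes), where 7.68% and 68.4% of all genes were higher and lower against iWAT and 8.43% and 70.3% against eWAT (11.7% and 53.6%, 12.7% and 55.0% without mitochondrial genes).

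With limma voom, Thra against iWAT was called at 0.27 and Thrsp between iWAT and eWAT at 0.78. The latter was 0.90 without the 4 libraries with genes of other tissues. Dio2 between iWAT and eWAT was called at 2.02 with the replicate block (mouse), and each of these 3 settings called 1 member there (all genes higher and lower: voom 7.51% and 6.98%, without the 4 libraries 5.7% and 4.55%, mouse block 4.65% and 4.6%). In wild type libraries alone 15 other pathway genes were higher in iBAT than in eWAT, and in knockout libraries alone 10 were lower (all genes, 19.4% higher and 16.3% lower in these respective fits, fewer than with both genotypes). Between iWAT and eWAT, either genotype alone called 0 higher and 0 lower (0.625% and 0.791% of all genes in wild type, 0.469% and 0.234% in knockout libraries), no filter left 1 lower (1.74% of all) and voom 7 (6.98%).

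Leaving out a library or mouse, Thra between iBAT and iWAT ranged from 0.27 to 0.49, past the threshold without eWAT ko 3 (0.41) and without knockout mouse 3 (0.43), and counts of other pathway genes between iWAT and eWAT from 3 to 9 higher and from 1 to 4 lower (all genes, 2.04% to 6.42% and 1.79% to 4.48%). Thra/Thrb ranged from -0.84 to -0.67 (iBAT to iWAT), -1.12 to -1.0 (iBAT to eWAT) and -0.37 to -0.27 (iWAT to eWAT). With fewer than 6 mice these exact tests cannot reach the threshold. Without the mice that had genes of other tissues the values were -0.63, -1.0 and -0.54 in this order. Dio2 had no value with a minimum of 10 counts in every library. The block by mouse changed no other tissue call of a member, and the replicate block by number no genotype call. Depth limits Dio2 in eWAT, where single libraries held few counts.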
